A study of Mus musculus with 11 samples.

Results

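Ets1 and Fli1 are neighbouring genes of mouse chromosome 9, and every deposited peak that overlaps mm9 chr9:32200000-32720000 was taken as the neighbourhood of the pair. The window spans 520 kb and held 186 of the 120616 peaks of the 6 lists. Acetylation of histone H3 at lysine 27 (H3K27ac) gave 24 and 24 of these peaks in wild-type (WT) replicates 1 and 2, and 19 and 26 in Rad21-deleted (KO) replicates 1 and 2. Smc1a belongs to the ring-shaped cohesin complex and gave 44 and 49 peaks in WT replicates 1 and 2. The cells were CD4+ CD8+ thymocytes sorted from mice aged 6 weeks. In KO mice a floxed Rad21 allele had been crossed to a Cre transgene under Cd4 control, and the controls were littermates whose Cre and floxed alleles the labels do not state. Cells were sorted on CD4 and CD8, not on loss of Rad21, and Smc1a was mapped in WT cells alone. Separate mice are not stated for the replicates of a group, so the spread between them may be technical.

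Ets1 and Fli1 encode transcription factors of the ETS family, which share a winged helix-turn-helix DNA-binding domain that recognises a GGAA core. Ets1 acts in thymocyte development and at T cell receptor enhancers, where it can bind beside Runx1. Fli1 acts in blood stem cells, megakaryocytes and lymphoid progenitors and is also made in thymocytes. H3K27ac marks active promoters and enhancers, and Rad21 closes the cohesin ring that holds chromatin loops. In the order of RefSeq genes (GRCm38.p6), Kcnj1 precedes Fli1, the non-coding genes Gm31871 and Gm31928 lie between Fli1 and Ets1, and Gm3331 follows Ets1. That table is of another build than the peaks, so peaks are given by mm9 position and were not assigned to a gene, promoter, exon or intron. For the same reason the labelled cell type was not checked against its marker genes.

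The whole lists held 15686 to 21973 H3K27ac peaks covering 45.6 to 56.3 Mb, and 25484 and 17726 Smc1a peaks. WT replicate 2 had the fewest H3K27ac peaks and the least covered length of the 4 libraries. No 2 libraries of a target held an identical peak. The files hold no reads, so the depth is unknown, and a missing peak is a missing call. Each peak carries a score of the authors' caller, given below as deposited or as a percentile within its own list.

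Acetylation covered less of the Ets1 and Fli1 window in both KO libraries than in both WT libraries. Called H3K27ac peaks covered 173.3 kb in WT replicate 1 and 181.3 kb in WT replicate 2. In KO replicates 1 and 2 they covered 159.1 and 144.9 kb. The means were 177.3 ± 5.68 kb in WT and 152.0 ± 10.03 kb in KO (SD, n = 2 each), a KO minus WT difference of -25.3 kb. The groups did not overlap, and with 2 libraries on each side the p cannot be smaller (two-sided exact permutation test, p = 0.333; 0.5 after Benjamini-Hochberg adjustment over 3 comparisons of the window). Among 3236 other tiles of the same size with a peak, both KO libraries lay below both WT libraries in 12.1% and above them in 22.7%. Those tiles were not matched to the window for covered length.

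The size of that difference rested on WT replicate 2 once each library was set against its own total. The window held 0.308% of the covered length of WT replicate 1 and 0.398% of that of WT replicate 2. It held 0.302% and 0.305% in KO replicates 1 and 2, so 3 libraries were close together and WT replicate 2 stood above them (exact permutation test, p = 0.333). Scaled to the library totals the difference was -24927 bp. Without WT replicate 2 it was -2329 bp on that scale, and without WT replicate 1 it was -45793 bp (effect sizes alone, since 1 WT library is left, and chosen after seeing the data). On the unscaled lengths the difference without WT replicate 2 was -21237 bp.

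**Figure D1:**
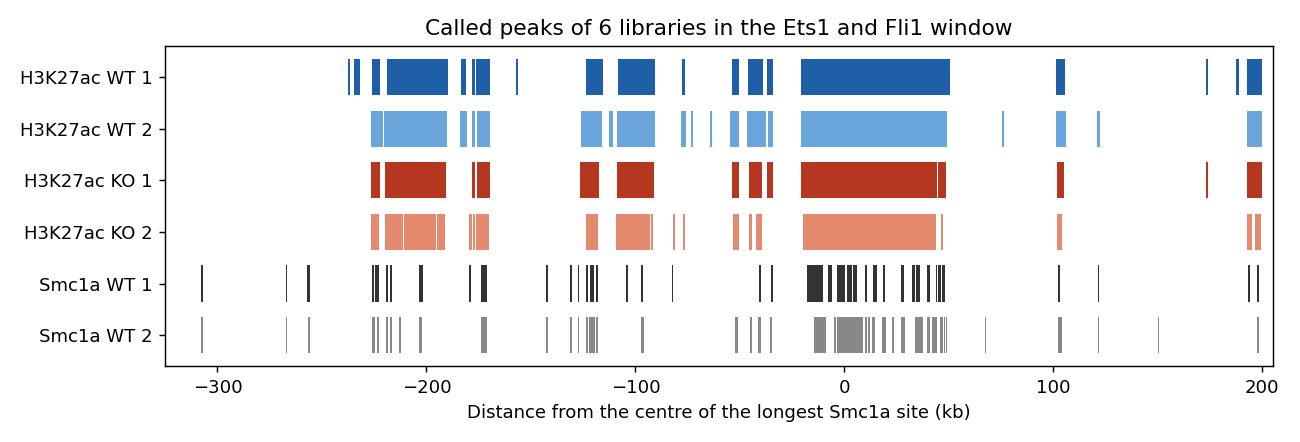
Called peaks (boxes) of the 4 H3K27ac and 2 Smc1a libraries across the 520 kb window, by distance in kb from the centre of the longest Smc1a site. Of the 27 acetylated regions 12 have a peak in all 4 H3K27ac libraries, among them the longest, and 11 of the 32 reproducible Smc1a sites lie in it.

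Peak numbers gave no such separation. WT libraries held 24.0 ± 0 peaks and KO libraries 22.5 ± 4.95 (SD, n = 2 each; exact permutation test, p = 1). KO replicate 1 had fewer peaks than both WT libraries and KO replicate 2 had more, and the difference was 2 without KO replicate 1 and -5 without KO replicate 2. Broad stretches are split by the caller into differing numbers of peaks, so covered bases were used for the rest of the comparison.

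The window was acetylated over a greater length than nearly all other tiles. The other tiles had a median covered length of 9258 bp in WT replicate 1 and 8843 bp in KO replicate 2. Of the 3236 tiles, 2 exceeded the window in WT replicate 1, 3 in WT replicate 2 and 0 in each KO library. The tiles were cut from the start of each chromosome. The window was drawn around a known pair of genes, and its definition also named its longest Smc1a site. Its place among the tiles is therefore a description and no test.

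In bases, 195.2 kb of the window lay under a peak of at least 1 library. All 4 libraries covered 138.6 kb, which is 71.0% of that length against 49.5% in the whole genome. Both WT libraries and neither KO library covered 8.22 kb (4.21%, against 3.50% in the genome). No base was covered by both KO libraries and neither WT library, against 2.89% in the genome. Bases called in 1 library alone came mostly from WT, with 13.98 kb in WT replicate 2 and 9.44 kb in WT replicate 1. KO replicate 2 gave 2.51 kb and KO replicate 1 gave 0.551 kb. The share of 1 WT library alone was close to that of the genome (11.99% against 12.13%). It was the share of 1 KO library alone that was lower in the window (1.57% against 7.88%). A further 14.2 kb was shared by both WT libraries and KO replicate 1 but not KO replicate 2. The reverse held for 1.38 kb. Bases of both WT libraries and 1 KO library made up 8.001%, against 6.81% in the genome.

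The bases shared by WT alone lay mainly at the margins of stretches that the KO libraries also held. They formed 21 segments, and the places of such segments were not counted over the genome. Of the 21, 15 were outer edges of a region with a KO peak, 5229 bp in all and at most 1359 bp each. Another 4 were gaps inside such a region (444 bp), and the last 2 made up the single region with no KO peak (2545 bp).

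**Figure D2:**
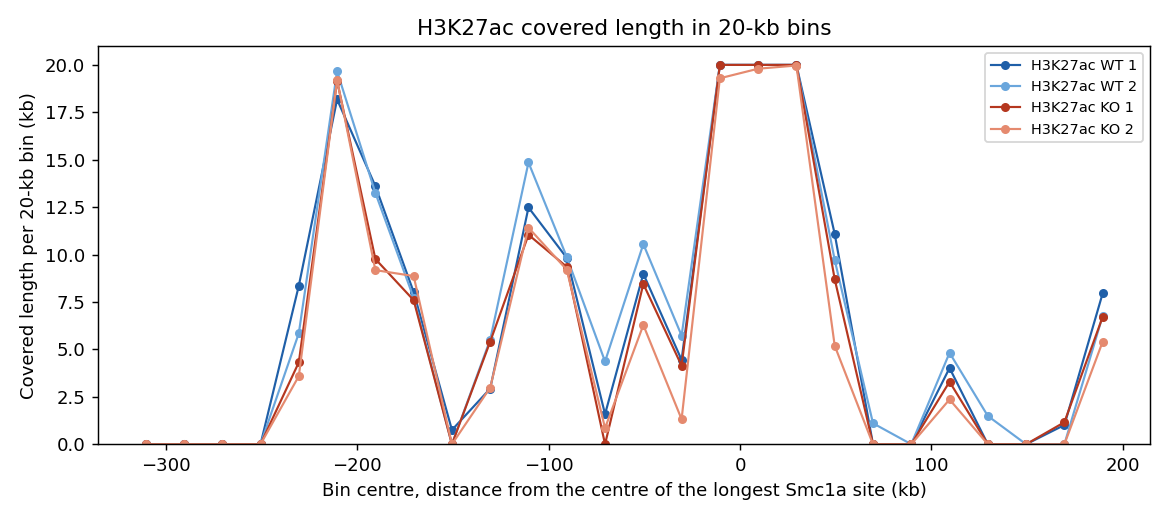
H3K27ac covered length (kb) in 20-kb bins, by distance in kb from the centre of the longest Smc1a site, with 1 line per library. Both KO lines lie below both WT lines in 10 of the 20 bins with a peak, and 3 bins near the centre are filled in 3 libraries and nearly filled in KO replicate 2.

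The same held in fixed 20-kb bins, which do not depend on how peaks are split. Of 20 bins of the window with a peak, both KO libraries were below both WT libraries in 10 and above them in 0. Over all 18625 such bins of the genome these shares were 16.3% and 20%. Those bins were not matched to the window for covered length. Among acetylated regions of at least 5000 bp in the genome, described below, the shares were 37.9% and 9.67%. Scaled to the library totals, the window had 7 bins in the first class and 0 in the second, against 13.9% and 20.4% of all bins. Bins of 1 window neighbour each other and share their libraries, so they are not separate tests.

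Union regions were formed by joining H3K27ac peaks of any of the 4 libraries that overlapped. The window held 27 of the 24430 union regions of the genome. A peak of all 4 libraries was present at 12 of the 27 (49.6% of all union regions). Both WT and neither KO library called 1 (2.33% of all regions), and both KO and neither WT library called 0 (2.82%). In covered length both KO libraries were below both WT libraries in 10 regions (15.9% of all regions) and above them in 0 (17%). Scaled to the library totals the counts were 7 and 0, against 12.2% and 17.2% of all regions. With 2 libraries against 2 no single region can be called, so the values below describe these libraries.

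Each of the 12 regions shared by all 4 libraries had a lower mean covered length in KO than in WT. The KO mean was 47.3% to 99.6% of the WT mean, with a median of 86.7%, against a median of 98.4% over all 12129 such regions. The groups did not overlap in 7 of the 12, all lower in KO, where 22.9% of such regions in the genome were lower and 17.4% higher. After scaling 4 of the 12 remained without overlap, again lower in KO, against 15.8% lower and 11.7% higher in the genome. Of the 8 regions of at least 5000 bp, 3 were lower without overlap, close to the 37.9% of such regions in the genome, and 0 were higher (9.67%). After scaling 1 of the 8 was lower (23.2%) and 0 were higher (7.4%).

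**Figure D3:**
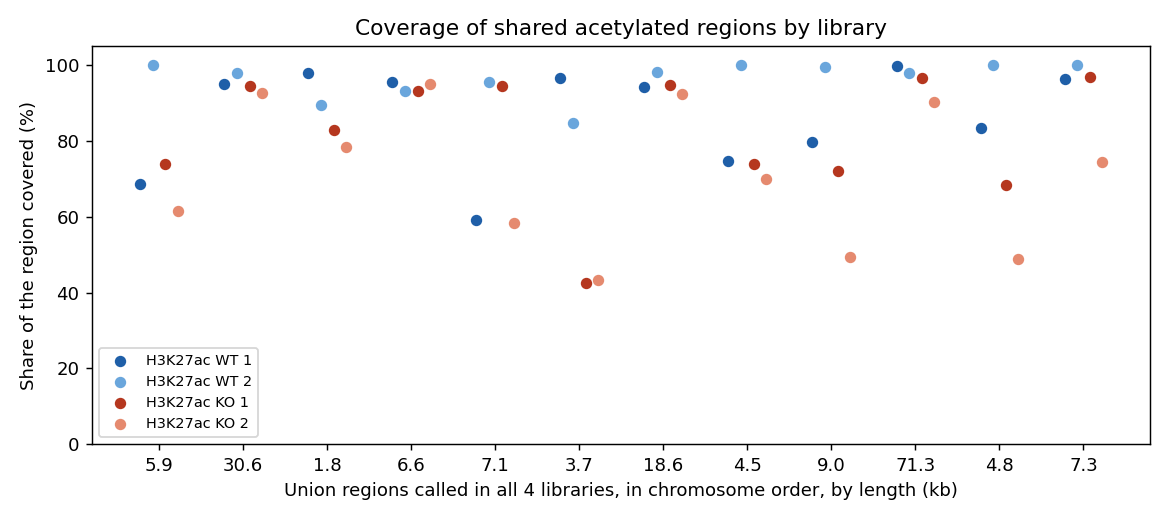
Share (%) of each of the 12 shared acetylated regions covered by peaks of each H3K27ac library, in chromosome order and marked by region length in kb. The longest region is covered over 90.1% to 99.8% by the 4 libraries, and the sixth region lies at 42.6% and 43.2% in the KO libraries.

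The longest acetylated stretch of the low-coordinate part of the window, at chr9:32300335-32330964, was 30630 bp long and ranked 33rd by length among the union regions of the genome. Its covered length was 29108 and 30015 bp in the WT libraries, against 28924 and 28383 bp in the KO libraries. The KO values were the lowest, but WT replicate 1 lay closer to KO replicate 1 than to its own replicate, and the order did not hold after scaling. Its best peak reached a score of 3100 in each library, the value shared by many of the strongest H3K27ac peaks. Just before it, the region at chr9:32293909-32299761 had 4011 and 5853 covered bp in WT, against 4318 and 3593 bp in KO. Here the groups overlapped, and WT replicate 2 stood apart from the other libraries.

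The region called in WT alone lay next on the chromosome, at chr9:32336699-32339738. WT replicate 1 covered 2682 bp of it with 1 peak and WT replicate 2 covered 2903 bp with 2 peaks. The scores were low to middling, 188.21 in WT replicate 1 (percentile 41.3) and at best 61.84 in WT replicate 2 (percentile 8.6). No Smc1a peak of either replicate overlapped it. The mean loss, from 2793 bp to 0, was the second largest of the window.

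Beside it stood a region with hardly any difference. At chr9:32344296-32350892 WT lengths were 6303 and 6146 bp and KO lengths 6139 and 6265 bp, with best scores of 3002.14 to 3100. The KO mean was 99.6% of the WT mean, the highest value of the 12 shared regions. Between these lay a region of 1757 bp at chr9:32342280-32344036, with 1721 and 1570 bp covered in WT, against 1456 and 1378 bp in KO.

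The middle of the window held 3 shared regions, of which the smallest differed most. At chr9:32401298-32404991, WT libraries covered 3570 and 3127 bp and KO libraries 1573 and 1595 bp. The KO libraries ended at nearly the same base, 32402918 and 32402892, and the WT libraries went on to 32404991 and 32404470. The KO mean was 47.3% of the WT mean, the lowest of the shared regions, and the groups stayed apart after scaling.

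Immediately before it, the region at chr9:32394190-32401250 showed a split that did not follow genotype. WT replicate 2 and KO replicate 1 covered 6739 and 6661 bp of it, while WT replicate 1 and KO replicate 2 covered 4179 and 4119 bp. After it, the stretch of 18567 bp at chr9:32411310-32429876 had 17492 and 18237 bp covered by WT, against 17572 and 17139 bp by KO peaks. The groups overlapped there, and the best score was 3100 in all 4 libraries.

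Several regions between this stretch and the longest one were shorter or missing in a KO library. The region of 9043 bp at chr9:32473883-32482925 had 7201 and 9000 covered bp in WT, against 6514 and 4472 bp in KO. Its mean length fell by 2607.5 bp, the third largest loss of the window, and it was the one region of at least 5000 bp whose groups stayed apart after scaling. At chr9:32483578-32486432, WT libraries covered 2816 and 2646 bp and KO replicate 1 covered 2549 bp, while KO replicate 2 had no peak. At chr9:32442587-32444939 it was KO replicate 1 that had no peak, KO replicate 2 covered 852 bp, and WT libraries covered 1584 and 2353 bp. The region at chr9:32465907-32470383 differed least, from 3343 and 4477 bp in WT to 3309 and 3133 bp in KO.

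The longest acetylated region of the window, chr9:32499780-32571085, spanned 71306 bp and was the 4th longest union region of the genome. WT replicate 1 covered 71157 bp of it with 1 unbroken peak, and WT replicate 2 covered 69869 bp with 2 peaks and a gap of 38 bp. KO replicate 1 covered 68922 bp with 3 peaks and KO replicate 2 covered 64255 bp with 6 peaks. Both KO libraries were thus below both WT libraries, with a mean difference of -3925 bp, the largest in bases of the window. It amounted to a KO mean of 94.4% of the WT mean, close to the median of 93.9% of shared regions of at least 5000 bp, and the groups overlapped after scaling.

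The bases that KO libraries lacked lay mostly at the high-coordinate end of this region. The last acetylated base was 32571085 and 32569749 in WT and 32569172 and 32567610 in KO libraries. Gaps summed to 471 bp in KO replicate 1 and 2650 bp in KO replicate 2, and the largest, of 2260 bp, began at 32564585 in KO replicate 2. At the other end KO replicate 1 began first of all, at 32499780, and KO replicate 2 last, at 32500706. The 3 bins from 32500001 to 32560000 were filled in both WT libraries and in KO replicate 1, and KO replicate 2 covered 19295, 19799 and 19968 bp of them. The 62472 bp peak of WT replicate 2 had a score of 235.09, and pieces of 32504 and 21432 bp in KO replicate 2 had 3100 each.

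**Figure D4:**
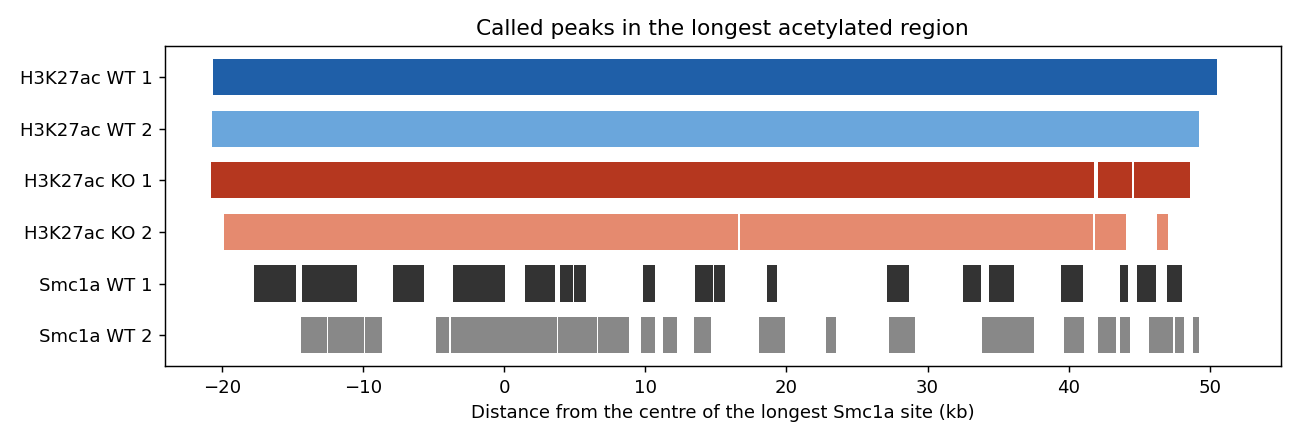
Called peaks in the longest acetylated region, by distance in kb from the centre of the longest Smc1a site. H3K27ac boxes are 1 in WT replicate 1, 2 in WT replicate 2, 3 in KO replicate 1 and 6 in KO replicate 2, some of whose gaps are too narrow to see. Smc1a peaks are spread over most of the region, with gaps of up to 7746 bp in replicate 1 and 4722 bp in replicate 2.

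Beyond the longest region 2 shared regions remained. At chr9:32621816-32626636, WT libraries covered 4019 and 4821 bp and KO libraries 3295 and 2360 bp, with both margins drawn in, and the groups stayed apart after scaling. At the end of the window, chr9:32713233-32720486 gave 6991 and 7254 bp in WT, against 7020 and 5404 bp in KO. KO replicate 2 alone was shorter there.

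The remaining calls were weak. Of the 27 regions, 11 were called in a single library, namely 4 in WT replicate 1, 5 in WT replicate 2 and 2 in KO replicate 2. The share of such regions over the genome was not counted. In bases, calls of 1 WT library alone also exceeded those of 1 KO library alone over the genome (8.29 against 5.39 Mb). The strongest of the 11, at chr9:32285802-32288952 in WT replicate 1, had a score of 207.40 (percentile 43.6). One more region, chr9:32693511-32694678, was called in WT replicate 1 and KO replicate 1, over 1012 and 1160 bp.

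Cohesin was dense in the same window. Regions with a Smc1a peak of both replicates, called reproducible sites, numbered 32 in the window and 14848 in the genome, and 3 of the 3236 other tiles had more (median 4). The definition of the window named its longest Smc1a site, so these counts describe the window and are no test. Smc1a peaks covered 57.0 kb of the window in replicate 1 and 67.2 kb in replicate 2. Replicate 2 overlapped 35 of the 44 peaks of replicate 1, and the reverse count was 36 of 49. A union region with a peak of both WT H3K27ac libraries held 25 of the 32 sites (78.1%), against 22.2% of all sites. A peak of all 4 H3K27ac libraries lay on 24 (75%), against 19.3%. H3K27ac peaks of WT replicates 1 and 2 covered 33.3% and 34.9% of the window itself (173251 and 181278 bp). The median of the other tiles was 9258 and 7094 bp, and the shares of sites were not adjusted for this difference.

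The longest Smc1a site, chr9:32516825-32524291, lay inside the longest acetylated region and was the 4th longest site of the genome at 7467 bp. This site was named when the window was defined, so its length and rank are part of that choice. Replicate 2 called it as 1 peak with a score of 180.44 (percentile 68.0), and replicate 1 as 2 peaks of 3676 and 2169 bp with a gap of 1374 bp and a best score of 263.24 (percentile 67.6). It was long but not among the strongest of either list. Peaks of all 4 H3K27ac libraries, WT and KO, covered it completely.

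The longest acetylated region held 11 of the 32 sites, and Smc1a peaks covered 29576 bp of it in replicate 1 and 36612 bp in replicate 2. The next longest sites were chr9:32506159-32510647 (4489 bp, scores 534.96 and 651.9) and chr9:32554394-32558115 (3722 bp, scores 472.04 and 483.53). The site at chr9:32565367-32568712 (3346 bp) was cut short in 1 KO library: both WT libraries and KO replicate 1 covered all of it, and KO replicate 2 covered 22.9%. The fifth, chr9:32346548-32349667 (3120 bp, scores 127.14 and 98.24), lay in the region whose acetylated length hardly differed. Reproducible sites of at least 2000 bp numbered 8 in the window and 538 in the genome (25% and 3.62% of sites, a length chosen after seeing the values), and all 8 were acetylated in every library at least in part. The longest of the 8 was part of the choice of the window.

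The replicates did not call every strong peak alike. A peak of replicate 1 at chr9:32502856-32505831, inside the longest acetylated region, had a score of 573.63 (percentile 87.8) and no counterpart in replicate 2. Of the 13 peaks that replicate 2 called alone, the best score was 118.01.

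**Figure D5:**
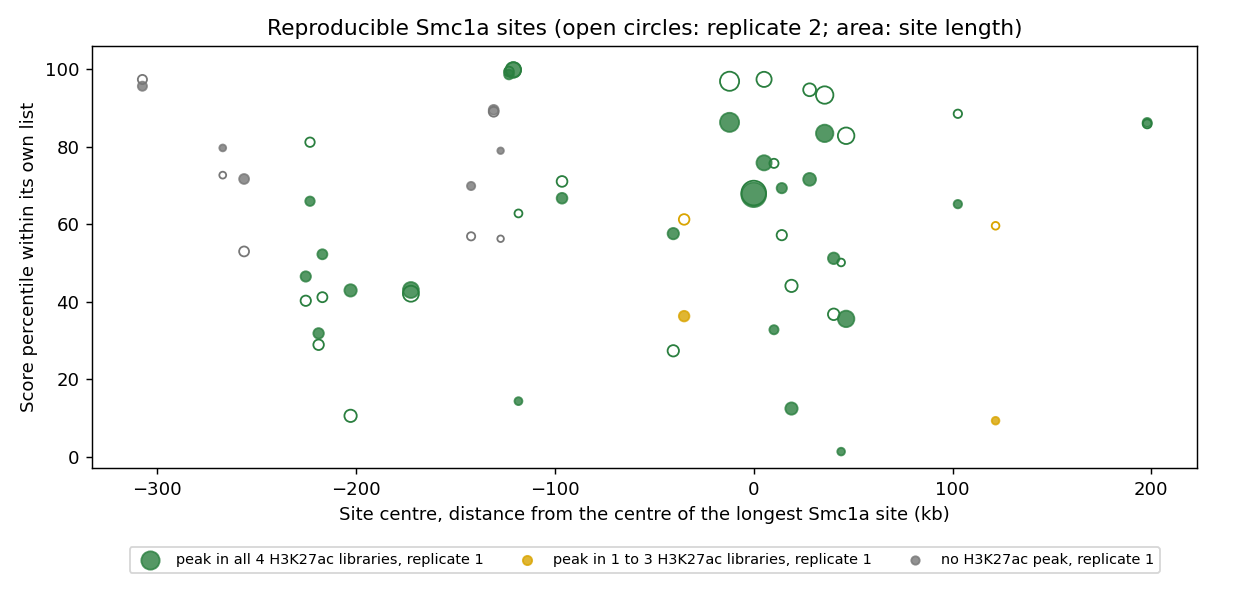
Score percentile of the 32 reproducible Smc1a sites within each replicate's list (filled circles, replicate 1; open circles, replicate 2), by distance in kb from the centre of the longest site, with circle area in proportion to site length. The pair of sites at -123.1 and -120.9 kb lies at the top of both lists, and sites without an H3K27ac peak (grey) run from percentile 53.0 to 97.3.

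The highest scores belonged to a pair of sites outside that region. The site at chr9:32398210-32401100 scored 1942.6 and 1515.08 (percentiles 99.8 and 99.8). Its neighbour at chr9:32396864-32398030 scored 1287.84 and 1055.94 (percentiles 98.6 and 99.4). Both lay in the acetylated region whose length split across genotypes, and all 4 libraries covered at least 82.4% of each. The shorter KO peaks of the adjoining region ended shortly after the small Smc1a site at chr9:32401829-32402594, which every library covered completely.

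A set of 6 sites had no H3K27ac peak of any library. The first 3, from chr9:32212532-32213563 to chr9:32263592-32264798, lay before the first acetylated region, and the other 3, from chr9:32377970-32378801 to chr9:32392974-32393497, lay in a gap of 43297 bp between shared regions. These were narrow sites of 524 to 1207 bp, against 727 to 7467 bp for the 25 acetylated in WT. Their scores ran from 285.52 to 921 in replicate 1 and from 124.12 to 680 in replicate 2. The medians were 399.97 and 171.23, against 190.97 and 180.44 for the 25 acetylated sites, so replicate 1 placed them higher and replicate 2 about level.

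Sites where acetylation was called in part of the libraries numbered 2. At chr9:32641854-32642580 only WT replicate 2 had an H3K27ac peak, with a score of 132.54. At chr9:32484865-32486241 both WT libraries and KO replicate 1 covered the site completely and KO replicate 2 had no peak. Smc1a was not mapped in KO cells, so whether cohesin was still at any of these sites was not tested.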

How the data were processed

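H3K27ac and Smc1a were mapped by chromatin immunoprecipitation and sequencing, and the 5 input libraries were not analysed here. The aligner was Bowtie 0.12.8 and the build mm9, per the submitters' processing notes. The deposited lists hold 1 library each, with MACS names, per the file contents. The score of each peak is the authors' value, at least 50 in every list, and its scale, the caller's version and settings, its controls and any filter on reads are not stated in these sources.

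Peaks that overlap the window were kept, and covered lengths were cut at its edges. Touching or overlapping peaks were merged into union regions, an overlap of 1 bp counted as a call, and coordinates are counted from 1. Regions are given whole. Covered length and peak number were compared by two-sided exact permutation over 4 libraries. Shares over all regions, 20-kb bins and 520-kb tiles with a peak are given as background. Interval functions were tested on 50 simulated sets. Python 3.11.15, numpy 2.4.6 and pandas 2.3.3 were used.

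The window and the lists were chosen with earlier results of these data known. Regions named were those of at least 5000 bp, those called in 1 genotype, the 3 largest losses without overlap and the reproducible Smc1a sites. Regions outside this rule were named after their values were seen. Gene lists, cell type markers and motifs were not run, since no mm9 annotation was used here.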

Additional observations from a re-analysis of the deposited data

How the results depend on the processing

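Of 78 alternatives over 9 results, 63 kept the direction of a difference or stayed within 1.5 times the reported count. The lower covered length of KO libraries kept its direction in every alternative run, from -32340 to -18162 bp as 1 library at a time was left out and from -45793 to -2329 bp where lengths were also scaled. The peak number difference changed sign, to 1 with scores in the upper 75% of each list, and ran from -5 to 2 without single libraries. The cause was not tested. Regions lower in both KO libraries numbered 6 with peaks within 1000 bp joined, and 11 to 20 with 1 library left out, when fewer libraries have to agree. In the same step WT-only regions ran from 2 to 7, and KO-only and higher regions each from 0 to 2. With peaks required to cover at least 50% of a region, WT-only regions numbered 3. Single Smc1a replicates gave 44 and 49 sites, 35 and 40 of them acetylated in WT. With the replicate number as a block, covered length differed by -14148 bp (number 1) and -36353 bp (number 2), mean -25250.5 bp (exact sign-flip p = 0.5, the smallest possible), and peak number by -5 and 2, mean -1.5 (exact p = 1). Deviations of same-numbered libraries correlated at 0.0651 over 18625 bins, and at 0.00469 after scaling to the library totals. Whether same-numbered libraries were prepared together is not stated, and a correlation of called lengths cannot decide it.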
